A study of Homo sapiens with 6 samples.

Results

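Metalloprotease genes of the MMP, ADAM and ADAMTS families and the TIMP inhibitors were followed in Huh7 cells, a human hepatocellular carcinoma line, after knockdown of CTSV. The members were chosen by a rule on gene names, set with earlier results of these data known. It took every name made of MMP, ADAM or ADAMTS, a number and at most 1 further letter other than P, plus TIMP1 to TIMP4. The rule found 39 of the 27394 gene names in the table: 13 ADAM, 9 ADAMTS, 13 MMP and 4 TIMP genes. The libraries were 3 from cells with a short hairpin RNA against CTSV (labelled CTSV knockdown, here shCTSV) and 3 from cells with a control hairpin (labelled WT, here shCON). All were grown in the same serum-containing medium, and libraries were made with an mRNA kit. The sources used here do not give the hairpin sequences, the number of hairpins or whether the cells were clonal or pooled. Nothing in the labels ties the 3 libraries of a group to separate cultures, so the p-values measure only the spread between these libraries.

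Matrix metalloproteinases (MMPs) and ADAMTS enzymes are zinc-dependent endopeptidases that cut proteins of the extracellular matrix, most of them secreted and some MMPs held at the cell surface. ADAMs are membrane proteins, and those with an intact active site act as sheddases that release the outer parts of growth factors, cytokine receptors and adhesion proteins. TIMPs bind the active site of these enzymes in a tight stoichiometric complex, so that the balance of enzyme and inhibitor is thought to set matrix turnover, which in liver is known best from fibrosis and from tumour invasion.

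The libraries held 16280506 to 17930442 counts in shCTSV and 16258803 to 18106207 in shCON. The targeted gene, CTSV, encoding the lysosomal protease cathepsin V, was at 18.4, 16.0 and 16.3 normalised CPM (counts scaled to the library total) in the shCTSV libraries, against 42.3, 44.5 and 41.0 CPM in shCON, and had a log2 fold change of -1.34 (adjusted p = 7.2e-14, SE 0.0958, edgeR). All 8 hepatocyte markers examined were above 1 CPM on average, with sums of 39880 to 40910 CPM in shCTSV and 32370 to 33160 CPM in shCON. Of the fibroblast or stellate markers, 5 of 8 were found in the table and 4 of them exceeded 1 CPM (COL1A2, COL3A1, PDGFRB and LUM), with a summed level of 61.6 to 69.0 CPM in shCTSV and 46.4 to 52.6 CPM in shCON. Summed enterocyte markers (SI and VIL1 among the 4 found) were at 360.7 to 372 CPM in shCTSV and 253.4 to 255.2 CPM in shCON, and macrophage markers (CD14 and LYZ) at 56.4 to 62.1 CPM in shCTSV and 75.2 to 84.2 CPM in shCON. The one endothelial marker found, PECAM1, was at 17.3 to 19.2 CPM in shCTSV and 16.7 to 21.7 CPM in shCON. The hepatocyte, fibroblast and enterocyte sums were thus higher in shCTSV, and the macrophage sum was lower. The mitochondrial share of counts was also higher, 11.4% to 11.8% in shCTSV and 9.09% to 9.52% in shCON. The part of these differences in the results below was not tested. In bulk RNA, a change in the cells that express a gene and a change in RNA per cell cannot be told apart.

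Of the 39 members, 32 had enough reads to be tested and 17 of these were called at an adjusted p under 0.05 (edgeR's quasi-likelihood test). The main sheddase genes ADAM9, ADAM10 and ADAM17 fell, as did the surface collagenase gene MMP14 and the proteoglycanase genes ADAMTS1 and ADAMTS9. The ADAMTS genes ADAMTS3, ADAMTS6, ADAMTS12, ADAMTS13 and ADAMTS20 rose, together with ADAM22, ADAM28, ADAM32, MMP11 and MMP28. No TIMP gene was called. In all, 10 of 32 tested members rose (31.2%) and 7 fell (21.9%), while among all 15968 genes tested 18.7% rose and 21.6% fell. With offsets for transcript length and GC content, chosen after seeing the data, 8 members rose and 8 fell, and of all genes 2266 rose and 4716 fell, against 2982 and 3451 without them. The share of members that fell thus lay at the background, while the share that rose was higher than among all genes, a difference that was not tested. The median log2 fold change, shCTSV over shCON, was 0.11 over the tested members and 0.02 over all tested genes. The members' median was 0.012 without shCTSV replicate 3, 0.010 without shCON replicate 3 and 0.287 without shCON replicate 2. The shCTSV libraries were all above the shCON libraries for 11 tested members and all below them for 8, against 24.1% and 25% of all tested genes.

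**Figure D1:**
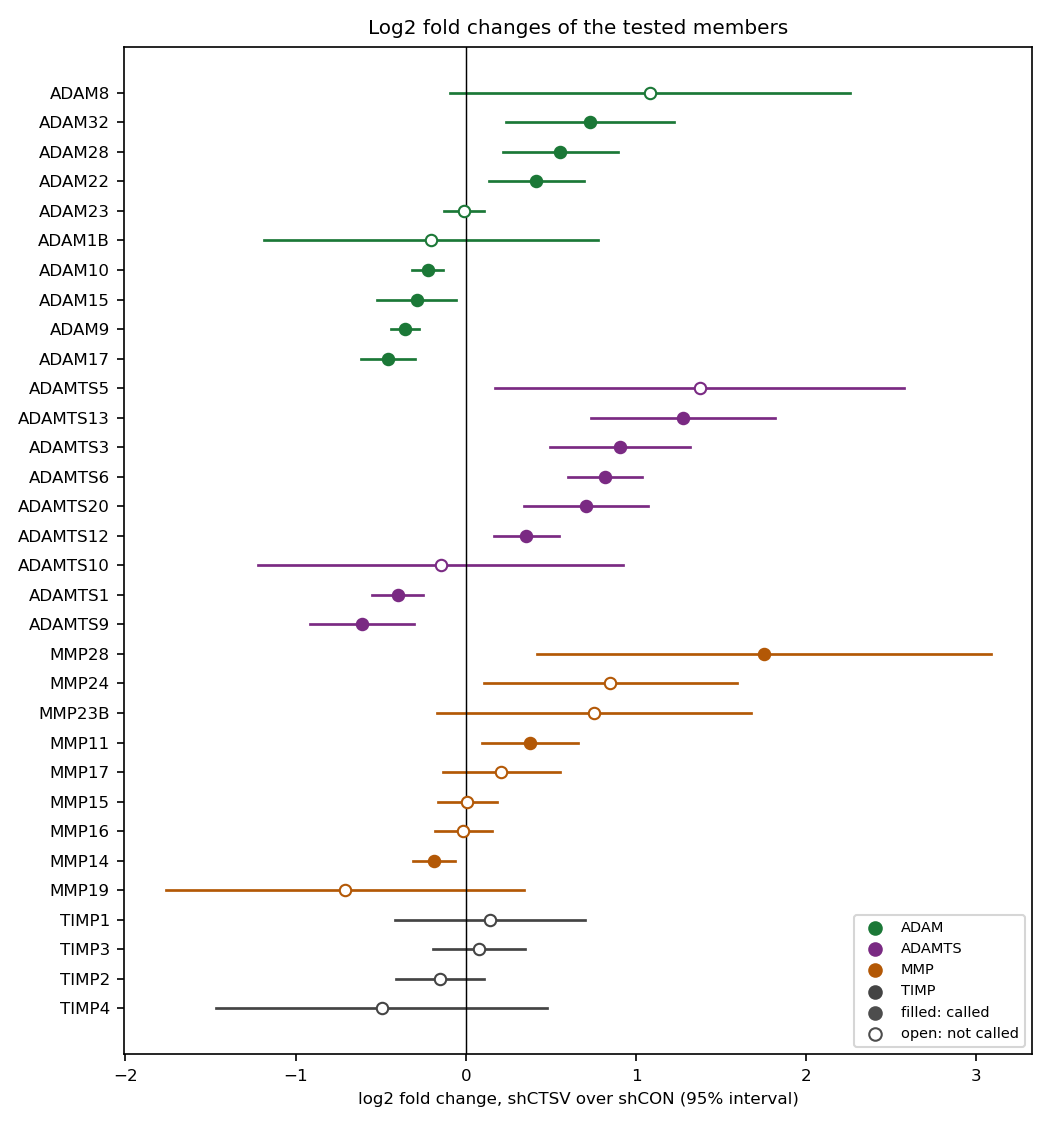
Log2 fold change (x axis, shCTSV over shCON) of the 32 tested members, grouped by family, with 95% intervals as lines. Filled points are called and open points are not. The ADAMTS points lie mostly to the right of 0, the 4 TIMP intervals all include 0, and ADAM9, ADAM10, ADAM15 and ADAM17 lie to the left.

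Start regions are printed for sheddase genes that fell and ADAMTS genes that rose, so that the letters around each start can be compared. They come from RefSeq (build GRCh38.p14), run from 250 bases before to 50 after the RefSeq start, and read in the direction of the gene. In the gene coordinates deposited with the counts, ADAM10 begins at 58749978, so its whole window lies inside that gene. ADAMTS3 and ADAMTS12 begin there at 72569386 and 33892192, so most bases before their RefSeq starts also lie inside the gene. Capitals mark matches, searched on either strand, to short patterns in which N is any base. The pattern that includes the AP-1 element was TGANTCA, and the pattern for the GC box bound by SP1 was GGGCGG. The pattern for the TATA box was TATAAA, and the core letters bound by many ETS family proteins were searched as CCGGAAG. The pattern for the palindromic E-box was CACGTG, and the core of the antioxidant response element was searched as TGACNNNGC. No 2 matches overlapped in these 5 windows.

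ADAM10, chr15:58749658-58749957, minus strand: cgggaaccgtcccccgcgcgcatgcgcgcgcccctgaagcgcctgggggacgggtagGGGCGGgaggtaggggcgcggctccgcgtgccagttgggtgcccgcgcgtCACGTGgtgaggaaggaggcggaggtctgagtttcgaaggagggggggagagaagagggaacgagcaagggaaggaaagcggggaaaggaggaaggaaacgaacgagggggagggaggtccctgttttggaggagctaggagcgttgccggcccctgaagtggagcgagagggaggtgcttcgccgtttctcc
ADAM17, chr2:9555781-9556080, minus strand: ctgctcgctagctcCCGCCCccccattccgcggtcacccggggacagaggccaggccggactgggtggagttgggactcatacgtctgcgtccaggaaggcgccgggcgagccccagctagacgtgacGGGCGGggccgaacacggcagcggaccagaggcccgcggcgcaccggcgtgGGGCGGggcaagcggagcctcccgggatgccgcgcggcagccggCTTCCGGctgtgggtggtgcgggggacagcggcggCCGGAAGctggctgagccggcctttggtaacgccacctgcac
ADAMTS3, chr4:72569172-72569471, minus strand: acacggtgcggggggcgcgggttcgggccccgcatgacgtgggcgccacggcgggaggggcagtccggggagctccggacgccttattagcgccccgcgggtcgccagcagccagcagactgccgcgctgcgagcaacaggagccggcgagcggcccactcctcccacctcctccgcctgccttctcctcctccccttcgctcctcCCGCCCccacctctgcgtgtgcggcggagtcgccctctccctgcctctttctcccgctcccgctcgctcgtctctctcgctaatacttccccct
ADAMTS6, chr5:65481871-65482170, minus strand: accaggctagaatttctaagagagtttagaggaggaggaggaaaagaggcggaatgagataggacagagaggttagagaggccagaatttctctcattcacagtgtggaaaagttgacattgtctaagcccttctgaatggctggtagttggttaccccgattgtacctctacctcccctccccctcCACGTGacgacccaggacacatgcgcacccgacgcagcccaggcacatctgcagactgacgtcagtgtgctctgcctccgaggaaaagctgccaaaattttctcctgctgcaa
ADAMTS12, chr5:33891941-33892240, minus strand: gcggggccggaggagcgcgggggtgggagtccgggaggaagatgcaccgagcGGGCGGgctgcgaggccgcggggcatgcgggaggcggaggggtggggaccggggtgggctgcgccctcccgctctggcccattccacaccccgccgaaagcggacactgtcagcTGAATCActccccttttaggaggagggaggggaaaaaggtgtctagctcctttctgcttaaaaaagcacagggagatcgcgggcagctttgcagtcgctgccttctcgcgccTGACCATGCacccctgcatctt

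Start regions of this length were found for 22 members, of which 7 rose and 4 fell. The GC box letters were in 19 of the 22, in 6 of the 7 that rose and all 4 that fell, and in 45.0% of 35116 start regions of all genes. TGANTCA was in 1 of 22, ADAMTS12, where it read as the tgaatca shown in capitals above, against 7.71% of all start regions. TATAAA was in 3 of 22 (ADAM21, ADAMTS10 and MMP21), against 11.5%, and CACGTG in 3 of 22 (ADAM10, ADAMTS6 and MMP21), against 7.26%. CCGGAAG was in ADAM17 alone, where it matched at 2 places, against 10.3% of all start regions, and TGACNNNGC in ADAMTS12 alone, against 13.3%. CpG pairs numbered 30 in the window of ADAM10, 36 in that of ADAM17, 35 in that of ADAMTS3, 9 in that of ADAMTS6 and 24 in that of ADAMTS12, with a median of 14 over all start regions. These are descriptions of the letters only.

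Among the ADAM genes, the abundant sheddases were lower after knockdown. ADAM9, a broadly expressed sheddase, had 571.5, 582.7 and 605.7 CPM in shCTSV, against 762, 730.1 and 761.8 CPM in shCON. ADAM10, the alpha-secretase that also cuts Notch receptors and E-cadherin, had 303, 298.6 and 303.7 CPM in shCTSV, against 362.7, 340.8 and 353.9 CPM in shCON. ADAM17, which releases TNF and ligands of the EGF receptor, had 37.6, 42.7 and 40.3 CPM in shCTSV, against 58.1, 51.5 and 55.6 CPM in shCON. In each of these genes every shCTSV library lay below every shCON library. The log2 fold change was -0.36 for ADAM9 (SE 0.0418, adjusted p = 9.29e-09), -0.22 for ADAM10 (SE 0.0453, adjusted p = 0.000118) and -0.46 for ADAM17 (SE 0.0782, adjusted p = 1.14e-05, edgeR, Benjamini-Hochberg adjustment over all tested genes). Tested genes in the same step of 1 log2 unit of level had a median of -0.24 for ADAM9, -0.17 for ADAM10 and -0.07 for ADAM17. ADAM9 and ADAM10 lay between the 10th and 90th percentiles of those genes, and ADAM17 lay below the 10th. With offsets for transcript length and GC content the value for ADAM10 was -0.43. ADAM17 shares 12.3% of its exon bases with IAH1 on the opposite strand, which also fell (log2 fold change -0.33). Reads of that stretch cannot be assigned without knowing whether strand was used in counting.

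ADAM15, a further catalytic ADAM, also fell, to 17.3, 15.3 and 15.4 CPM in shCTSV, against 18.6, 20.8 and 19.2 CPM in shCON (log2 fold change -0.29, SE 0.114, adjusted p = 0.0408, edgeR). The groups did not overlap, but the call was close to the threshold. It was lost without shCTSV replicate 2 or 3 (adjusted p = 0.121 and 0.124), without shCON replicate 2 or 3 (0.128 and 0.0612), with all genes kept whatever their counts (0.0505) and in DESeq2 (0.0583).

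ADAM28, ADAM22 and ADAM32 moved the other way. ADAM28, a sheddase described first in lymphocytes, had 17.0, 12.4 and 11.5 CPM in shCTSV, against 10.8, 6.499 and 10.47 CPM in shCON (log2 fold change 0.56, SE 0.166, adjusted p = 0.00698, edgeR). ADAM22, a catalytically inactive receptor of the neuronal protein LGI1, had 12.2, 14.0 and 15.7 CPM in shCTSV, against 10.7, 11.01 and 9.72 CPM in shCON (0.41, SE 0.138, adjusted p = 0.0147, edgeR). ADAM32, an ADAM without the catalytic motif, had 5.02, 4.91 and 4.73 CPM in shCTSV, against 2.30, 3.43 and 3.12 CPM in shCON (0.73, SE 0.244, adjusted p = 0.0154, edgeR). In each of these genes the lowest shCTSV library stood above the highest shCON library, by the least margin in ADAM28. That call was lost without shCTSV replicate 1 (log2 fold change 0.36, adjusted p = 0.0965) or shCON replicate 2 (0.35, adjusted p = 0.0857, edgeR). The call of ADAM22 was lost without shCTSV replicate 3 (adjusted p = 0.11), without shCON replicate 3 (0.0623) and with length and GC offsets (log2 fold change 0.25, adjusted p = 0.132). The call of ADAM32 was lost without shCON replicate 1 (adjusted p = 0.082) and with those offsets (0.0849, edgeR).

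The other tested ADAM genes were not called. ADAM23, an inactive relative of ADAM22 that also binds LGI1, was at 95.8 ± 3.44 CPM in shCTSV and 96.5 ± 3.97 CPM in shCON (SD, n = 3 each), and its log2 fold change of -0.01 had a 95% interval from -0.13 to 0.11. ADAM8, best known from leukocytes, had 0.726, 2.85 and 0.825 CPM in shCTSV, against 1.01, 0.963 and 0.0623 CPM in shCON. Its log2 fold change of 1.08 rested on 1 high shCTSV library and 1 low shCON library, and was 0.18 without shCTSV replicate 2 (adjusted p = 0.138 with all libraries, edgeR). ADAM1B, annotated as a unitary pseudogene, was at 0.987 ± 0.241 CPM in shCTSV and 1.14 ± 0.578 CPM in shCON (SD, n = 3 each).

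Of the 9 ADAMTS genes, all tested, 5 rose (55.6%) and 2 fell (22.2%), against 18.7% and 21.6% of all tested genes. ADAMTS6, a close relative of ADAMTS10, had 25.7, 27.7 and 25.6 CPM in shCTSV, against 15.1, 15.5 and 14.2 CPM in shCON (log2 fold change 0.82, SE 0.107, adjusted p = 9e-08, edgeR). ADAMTS13, the enzyme that trims von Willebrand factor, had 4.11, 7.03 and 5.56 CPM in shCTSV, against 2.80, 1.504 and 2.55 CPM in shCON (1.28, SE 0.267, adjusted p = 0.000183, edgeR). ADAMTS3, which removes the amino-terminal propeptide of procollagen and processes VEGF-C, had 6.77, 6.60 and 7.54 CPM in shCTSV, against 3.87, 3.37 and 3.92 CPM in shCON (0.91, SE 0.203, adjusted p = 0.00042, edgeR). The shCTSV libraries thus held 1.77, 2.42 and 1.87 times the shCON level of these genes, with no overlap between groups.

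ADAMTS20, known in mouse from the belted coat colour mutation, had 14.8, 11.2 and 13.3 CPM in shCTSV, against 10.99, 4.99 and 8.04 CPM in shCON (log2 fold change 0.71, SE 0.180, adjusted p = 0.00166, edgeR). Its shCON libraries were widely spread, and the fold change was 0.45 without shCON replicate 2 (adjusted p = 0.0272). ADAMTS12, which cuts cartilage oligomeric matrix protein, had 35.6, 31.9 and 37.0 CPM in shCTSV, against 29.5, 24.5 and 27.6 CPM in shCON (0.36, SE 0.0948, adjusted p = 0.00257, edgeR). All 5 of the ADAMTS genes that rose were called in each of the 12 alternatives other than the limit of 1.5-fold, under which ADAMTS12, at 1.28-fold, was not called.

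ADAMTS1 and ADAMTS9, proteoglycanases that cut versican and aggrecan, moved opposite to these. ADAMTS1 had 44.6, 45.9 and 48.5 CPM in shCTSV, against 64.9, 59.8 and 58.7 CPM in shCON (log2 fold change -0.40, SE 0.0732, adjusted p = 2.95e-05, edgeR). ADAMTS9 had 9.07, 9.09 and 7.70 CPM in shCTSV, against 15.0, 10.7 and 13.6 CPM in shCON (-0.61, SE 0.151, adjusted p = 0.00128, edgeR). The proteoglycanases thus divided, with ADAMTS20 higher and ADAMTS1 and ADAMTS9 lower. ADAMTS5, the aggrecanase of cartilage, had only 21, 12 and 12 raw counts in shCTSV, against 6, 6 and 5 in shCON. Its groups did not overlap and its log2 fold change was 1.37 (SE 0.592), but it missed the threshold (adjusted p = 0.062, edgeR). ADAMTS10, which is linked to fibrillin microfibrils, was at 0.917 ± 0.183 CPM in shCTSV and 1.02 ± 0.848 CPM in shCON (SD, n = 3 each) and was not called, with an interval from -1.22 to 0.93.

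**Figure D2:**
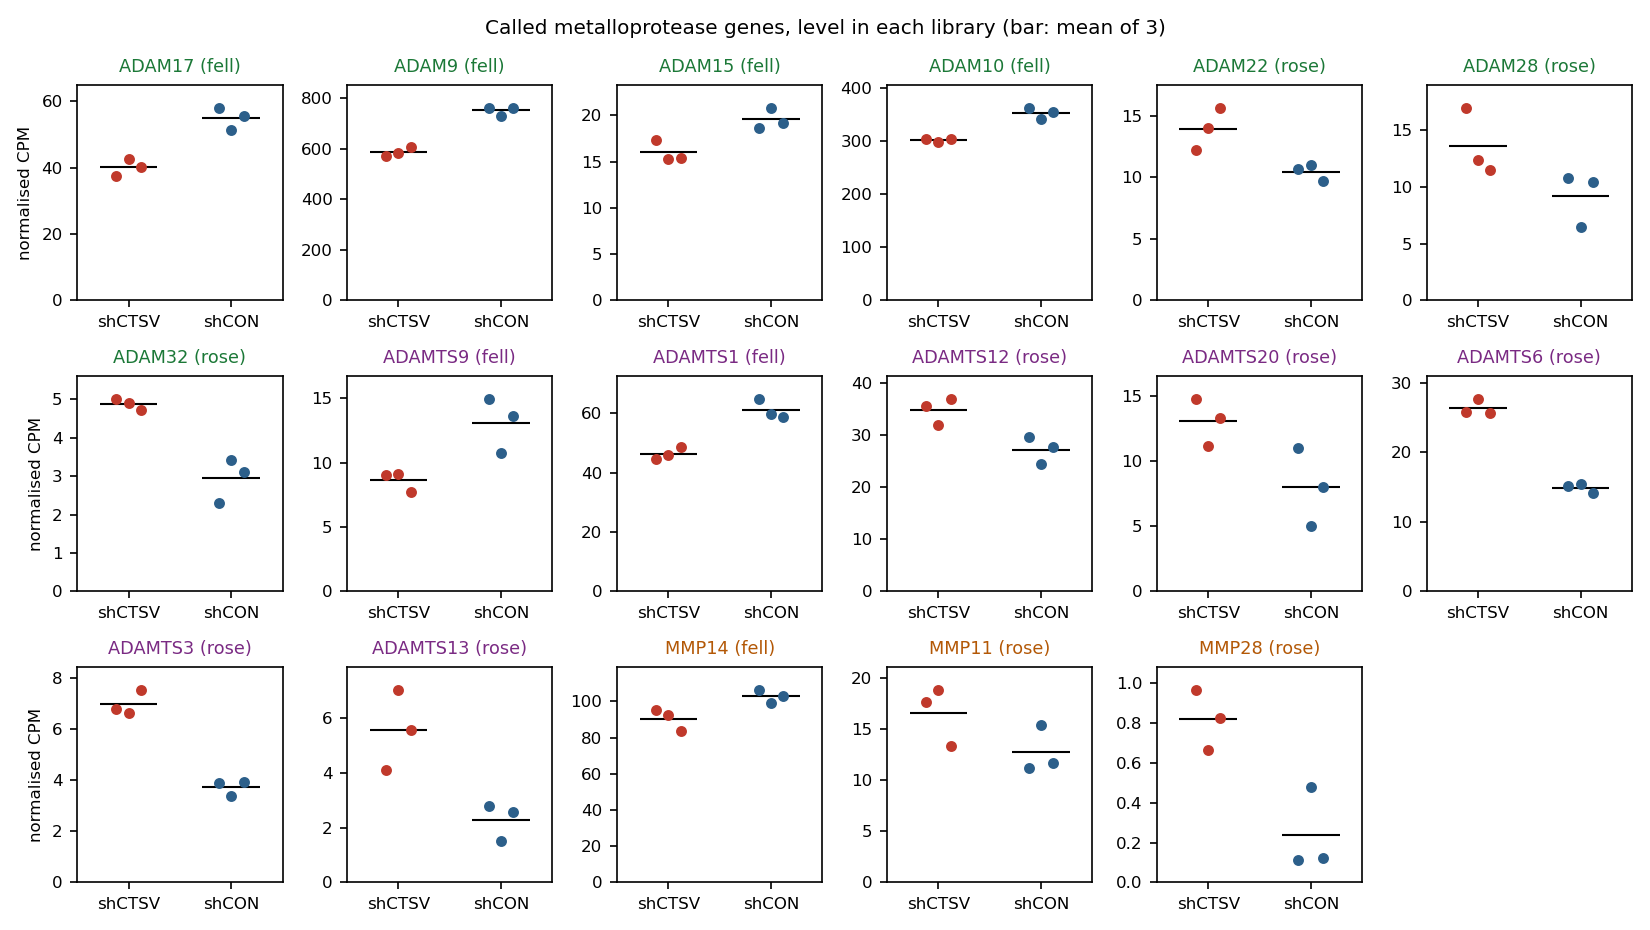
Normalised CPM (y axis, from 0) in each of the 3 shCTSV and 3 shCON libraries for the 17 called members, with a bar at each mean. The groups do not overlap in any panel except MMP11, where the lowest shCTSV library at 13.4 CPM lies under the highest shCON library at 15.4 CPM.

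Of the MMP genes, 9 of 13 were tested. Of these 9, 2 rose (22.2%) and 1 fell (11.1%), against 18.7% and 21.6% of all tested genes. MMP14, the membrane-type enzyme that cuts fibrillar collagen and activates pro-gelatinase A, had 95.3, 92.7 and 83.6 CPM in shCTSV, against 106.5, 99.2 and 103.2 CPM in shCON. Its log2 fold change was -0.19 (SE 0.0607, adjusted p = 0.0126, edgeR), a shCTSV level of 0.878 times that of shCON, and was not called without shCTSV replicate 3 (adjusted p = 0.134) or shCON replicate 1 (0.0596). MMP11, a stromelysin activated inside the cell by furin, had 17.6, 18.8 and 13.4 CPM in shCTSV, against 11.2, 15.4 and 11.7 CPM in shCON (log2 fold change 0.38, SE 0.140, adjusted p = 0.0297, edgeR). The groups overlapped. The call was lost without shCTSV replicate 1 or 2 (adjusted p = 0.0835 and 0.196), without shCON replicate 1 or 3 (0.157 and 0.113) and with DESeq2 (0.0577). MMP28, or epilysin, had 16, 11 and 15 raw counts in shCTSV, against 2, 8 and 2 in shCON (1.75, SE 0.657, adjusted p = 0.0311, edgeR). At such counts the size of the change is poorly fixed, with a 95% interval from 0.42 to 3.08. The log2 fold change of MMP28 was 2.72 without shCON replicate 2, and the call was lost without shCTSV replicate 1, 2 or 3 (adjusted p = 0.111, 0.0611 and 0.0802), without shCON replicate 1 or 3 (0.158 and 0.142), with all genes kept whatever their counts (0.083) and in DESeq2 (0.0551).

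The remaining membrane-type genes were not called. MMP15 was at 39.5 ± 1.34 CPM in shCTSV and 39.3 ± 4.23 CPM in shCON, with an interval of the log2 fold change from -0.16 to 0.18 (SD, n = 3 each). MMP16 was at 48.2 ± 4.42 CPM in shCTSV and 48.7 ± 4.51 CPM in shCON (SD, n = 3 each), with an interval from -0.18 to 0.15. With length and GC offsets, MMP16 fell by 0.21 on the log2 scale and was called (adjusted p = 0.0181, edgeR). MMP17, which is held at the surface by a lipid anchor, was at 8.84 ± 1.45 CPM in shCTSV and 7.64 ± 0.881 CPM in shCON (SD, n = 3 each). MMP24, studied mainly in nervous tissue, had 2.96, 2.67 and 2.15 CPM in shCTSV, against 0.897, 2.05 and 1.37 CPM in shCON. It did not overlap between groups, with a log2 fold change of 0.85 and an adjusted p of 0.0615, and was called without shCON replicate 2 (1.19, adjusted p = 0.022, edgeR). MMP24 shares 18.1% of its exon bases with the opposite-strand gene MMP24OS. MMP19 shares 17.4% of its exon bases with the opposite-strand gene TMEM198B, which averaged 10.45 CPM. MMP19 was at 0.730 ± 0.416 CPM in shCTSV and 1.19 ± 0.584 CPM in shCON, (SD, n = 3 each). MMP23B had 1.51, 1.82 and 1.10 CPM in shCTSV, against 0.785, 1.204 and 0.623 CPM in shCON. The groups overlapped for both, and neither was called.

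The inhibitor genes showed no called difference, with intervals of different width. TIMP1 had 3.81, 2.54 and 3.96 CPM in shCTSV, against 3.03, 3.97 and 2.37 CPM in shCON (log2 fold change 0.14, interval from -0.42 to 0.70, adjusted p = 0.718, edgeR). TIMP2, which joins MMP14 in activating pro-gelatinase A, had 13.1, 13.0 and 12.7 CPM in shCTSV, against 13.9, 15.8 and 13.5 CPM in shCON (-0.15, interval from -0.41 to 0.11, adjusted p = 0.366, edgeR). TIMP3, which binds matrix and inhibits ADAM17, had 13.2, 16.6 and 18.6 CPM in shCTSV, against 13.8, 18.1 and 14.0 CPM in shCON (0.08, interval from -0.19 to 0.35, adjusted p = 0.669, edgeR). All 3 shCTSV values of TIMP2 lay below all 3 shCON values, while the groups overlapped for TIMP1 and TIMP3. TIMP4, the rarest of the family, had 1.69, 0.485 and 0.715 CPM in shCTSV, against 1.79, 1.26 and 0.997 CPM in shCON (-0.49, interval from -1.47 to 0.48, adjusted p = 0.438, edgeR). It shares 10.3% of its exon bases with the opposite-strand gene SYN2. The intervals of TIMP1, TIMP2 and TIMP3 lay within 1 log2 unit of 0, and that of TIMP4 did not.

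Levels were also ordered per kb of exon, taking all annotated exons of a gene together (16168 bases for ADAM10, 4464 for MMP14). The length of the transcripts expressed was not examined, so the order depends on that choice. On this scale ADAM9 stood far above every other member. Its mean level was 84.9 CPM per kb in shCTSV and 108.7 CPM per kb in shCON. MMP14 followed at 20.3 CPM per kb in shCTSV and 23.1 CPM per kb in shCON, then ADAM10 at 18.7 CPM per kb in shCTSV and 21.8 in shCON, and ADAM23 at 14.9 in shCTSV and 15.0 in shCON. MMP15 was next at 8.95 CPM per kb in shCTSV and 8.89 in shCON. The most abundant ADAMTS gene was ADAMTS1, at 6.56 CPM per kb in shCTSV and 8.66 CPM per kb in shCON, and the most abundant inhibitor TIMP3, at 3.51 CPM per kb in shCTSV and 3.33 in shCON. The ADAMTS genes that rose were lower per length, with ADAMTS12 at 3.56 CPM per kb in shCTSV and 2.78 in shCON and ADAMTS13 at 0.9751 in shCTSV and 0.401 CPM per kb in shCON. ADAMTS6 stood at 3.08 CPM per kb in shCTSV and 1.74 in shCON.

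**Figure D3:**
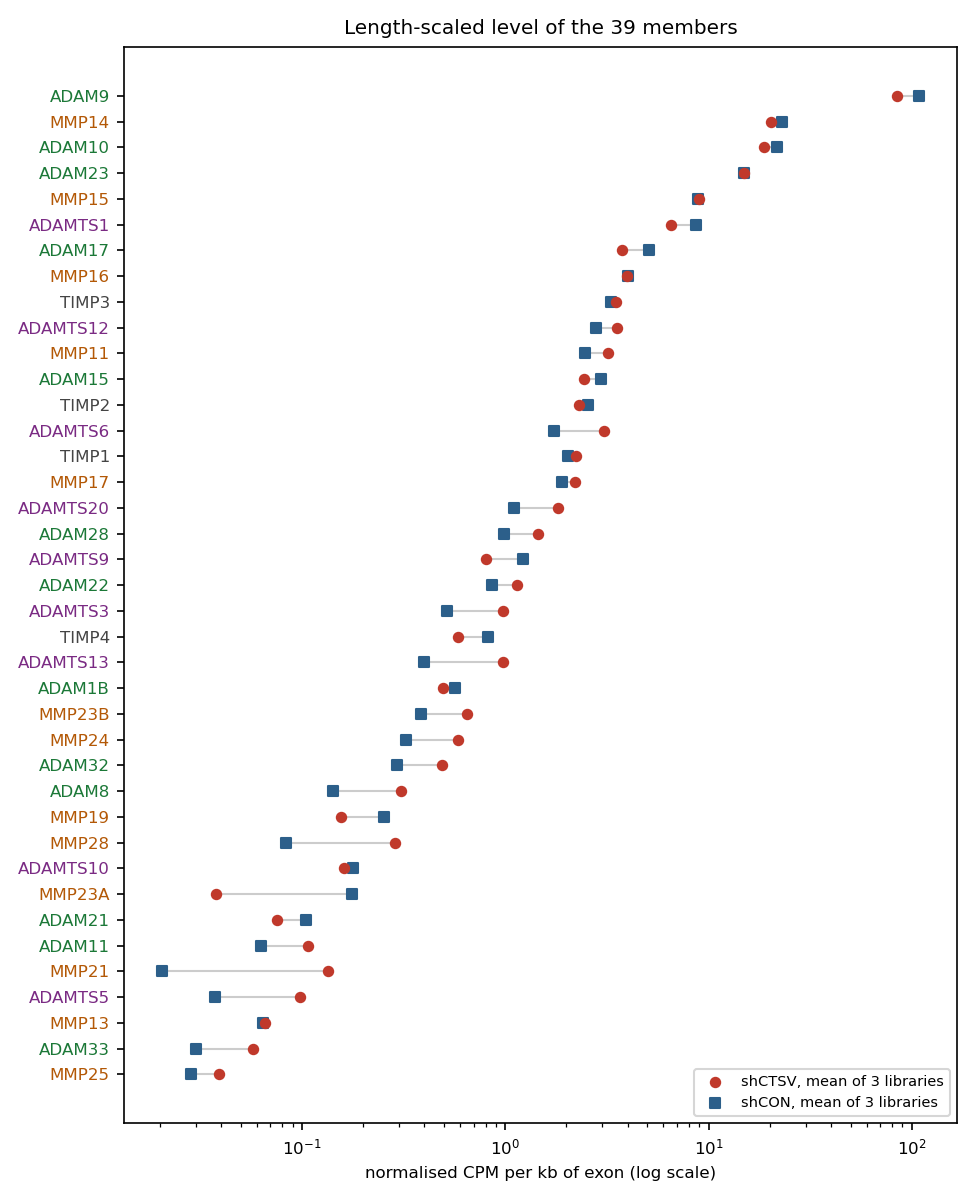
Mean normalised CPM per kb of exon (x axis, log scale) of the 39 members in shCTSV (circles) and shCON (squares), ordered from the highest at the top, with names coloured by family. ADAM9 stands alone at about 100 CPM per kb, and the widest gaps between groups are in genes under 1 CPM per kb.

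Summed over the family, ADAM genes took 1076 ± 20.4 CPM in shCTSV and 1300 ± 36.2 CPM in shCON (SD, n = 3 each), a ratio of 0.828 to which ADAM9 and ADAM10 contributed most. ADAM9, ADAM10 and ADAM17 together made up 86.3% of ADAM counts in shCTSV and 89.1% in shCON. The ADAMTS sum was 143.6 ± 2.85 CPM in shCTSV and 131.7 ± 10.3 CPM in shCON (SD, n = 3 each). MMP genes summed to 210.0 ± 6.44 CPM in shCTSV and 215.7 ± 3.64 CPM in shCON, and TIMP genes to 33.5 ± 2.23 CPM in shCTSV and 34.2 ± 4.33 CPM in shCON (SD, n = 3 each). The groups did not overlap for the ADAM sum and overlapped for the ADAMTS, MMP and TIMP sums.

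The calls were divided by level, among the members and among all genes. Of 18 members whose mean was at least 10 CPM, 6 rose and 7 fell, with a median log2 fold change of -0.01, against 19.7% and 33.4% of all genes at that level and a median of -0.07. Of 14 members below 10 CPM, 4 rose and 0 fell, with a median of 0.74, against 17.1% and 4.58% of all such genes and a median of 0.26. Among called members, ADAMTS3, ADAMTS6, ADAMTS13, ADAMTS20 and MMP28 lay above the 90th percentile of tested genes in the same step of 1 log2 unit of level. ADAM17 and ADAMTS9 lay below the 10th percentile, and the other 10 called members, ADAM9 and ADAM10 among them, lay inside these limits. Genome span differed as well: of 11 tested members that span 100 kb or more, 6 rose and 3 fell, and of 21 shorter ones 4 rose and 4 fell. Among all tested protein-coding genes, 25.2% of those spanning 100 kb or more rose and 18.1% fell, against 17.0% and 28.2% of shorter ones. Both divisions were chosen after the values were seen, and their part in the members' calls was not tested.

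**Figure D4:**
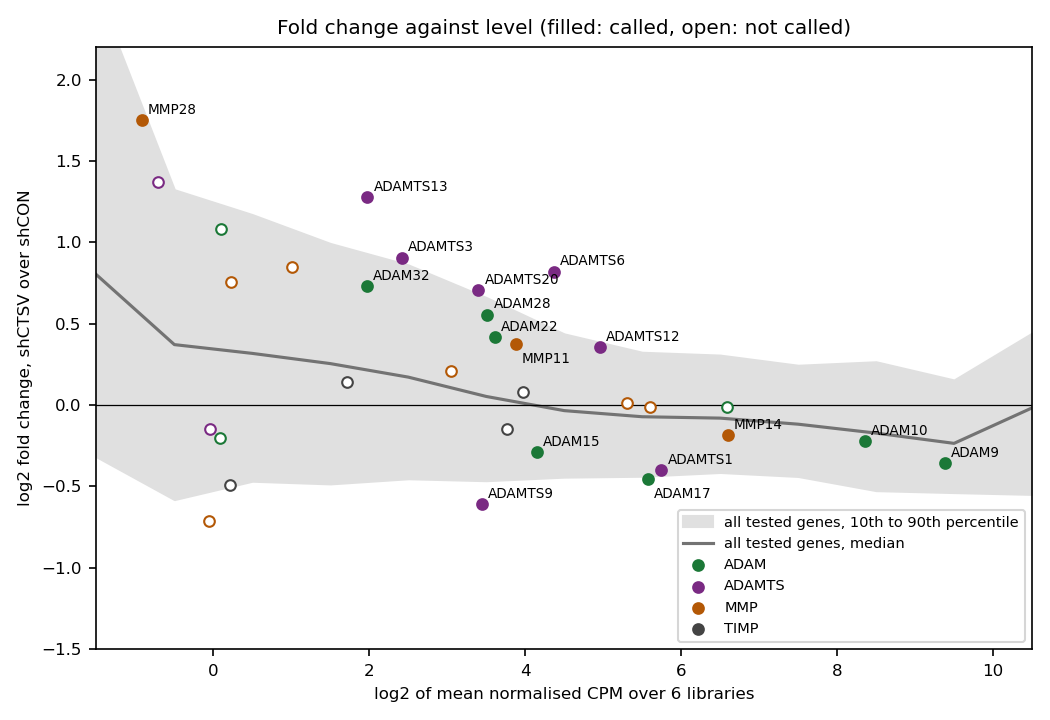
Log2 fold change (y axis, shCTSV over shCON) against log2 mean CPM over the 6 libraries for the 32 tested members, with the median (line) and the 10th to 90th percentile (band) of all tested genes in steps of 1 log2 unit. Filled points are called. The median of all genes declines from left to right over most of the range, and ADAMTS3, ADAMTS6, ADAMTS13 and ADAMTS20 stand above the band.

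The other 7 members were below the count filter and were not tested. MMP21, which is needed for left-right asymmetry of the embryo, had 8, 2 and 3 counts in shCTSV, against 1, 0 and 1 in shCON. MMP13, a collagenase, had 0, 2 and 8 counts in shCTSV, against 0, 6 and 3 in shCON, and MMP25, a membrane-type MMP, had 8, 0 and 0 in shCTSV, against 3, 2 and 1 in shCON. MMP25 shares 35.2% of its exon bases with the opposite-strand gene MMP25-AS1. MMP23A, a pseudogene copy of MMP23B with a like sequence, had 0, 1 and 1 counts in shCTSV, against 3, 1 and 5 in shCON, so the split of reads between this pair is uncertain. ADAM11 had 9, 10 and 7 counts in shCTSV, against 5, 1 and 9 in shCON, and ADAM21 had 5, 4 and 1 in shCTSV, against 6, 2 and 6 in shCON. ADAM33, a gene linked to asthma, had 4, 8 and 5 counts in shCTSV, against 4, 3 and 2 in shCON. No call is given for them here.

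Pairs of members lie near each other in the genome, among them MMP23B and its copy MMP23A, with 64678 bases between them. On chromosome 8 (hg38), ADAM9 ends at 39105144 and ADAM32 begins at 39106990 on the same strand, 1845 bases apart, and ADAM9 fell while ADAM32 rose. Reads running past the end of ADAM9 into ADAM32 were not examined. On chromosome 21, ADAMTS1 (26835747 to 26845409) and ADAMTS5 (26917912 to 26966513) lie on the minus strand with 72502 bases between them. ADAMTS1 fell, with a log2 fold change of -0.40, and ADAMTS5 had 1.37 without a call.

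Genes listed as partners, substrates, activating proteases, other inhibitors, transcription factors or relatives also moved in both directions. Among all tested genes 18.7% rose and 21.6% fell. Those shares differed with level: 19.7% rose and 33.4% fell among genes at 10 CPM or more, against 17.1% and 4.58% below it. The lists were not divided by level, so a share above or below that of all genes may reflect level. Of 12 tested partners of ADAM10 and ADAM17, 1 rose (8.33%) and 4 fell (33.3%), with a median log2 fold change of -0.14. TSPAN14, a tetraspanin that escorts ADAM10 to the surface, was at 73.4 ± 3.82 CPM in shCTSV and 108.9 ± 6.17 CPM in shCON (SD, n = 3 each; log2 fold change -0.57, adjusted p = 1.89e-09, edgeR). RHBDF2, the iRhom protein that carries ADAM17 through the secretory pathway, was at 8.16 ± 0.986 CPM in shCTSV and 12.6 ± 1.85 CPM in shCON (SD, n = 3 each; -0.62, adjusted p = 0.00113, edgeR), and the tetraspanin gene CD151 also fell (-0.54).

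Among 26 tested genes of shed proteins, 6 rose (23.1%) and 8 fell (30.8%). SDC4, a cell-surface proteoglycan, fell by 0.68 and EREG, an EGF receptor ligand, by 0.84 on the log2 scale, while CDH1, encoding E-cadherin, rose by 0.78. Of 10 tested activating proteases, 2 rose (20%) and 1 fell (10%). FURIN, which removes the propeptide of ADAMs and membrane-type MMPs, averaged 475 CPM in shCTSV and 559.7 CPM in shCON (log2 fold change -0.24, SE 0.0426, adjusted p = 2.35e-05, edgeR), and the hepatocyte serine proteases HPN (1.06) and KLKB1 (1.06) rose. Of 11 tested matrix substrates, 4 rose (36.4%) and 2 fell (18.2%). VCAN, encoding versican, a substrate of ADAMTS1 and ADAMTS9, was at 165.2 ± 9.73 CPM in shCTSV and 244.2 ± 13.1 CPM in shCON (SD, n = 3 each; -0.56, adjusted p = 6.45e-11, edgeR), and FBLN1 (0.24) and LAMB1 (0.19) rose.

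Of 11 tested protease inhibitors outside the TIMP family, 6 rose (54.5%) and 2 fell (18.2%). Among those that rose were the genes of the plasma proteins AHSG (0.45) and AMBP (0.34). The hepatocyte marker sum was higher in shCTSV too, and its part in these 2 values was not tested. Of 15 tested transcription factors known to act on MMP promoters, 1 rose (6.67%) and 9 fell (60%), with a median of -0.43 against 0.02 over all tested genes, among them ETS2 (-0.56), JUN (-0.45) and NFKB1 (-0.44). Of 9 tested relatives, 3 rose (33.3%) and 1 fell (11.1%). MEP1A, the meprin metalloprotease subunit of intestinal and kidney brush border, was at 184.6 ± 5.85 CPM in shCTSV and 89.4 ± 0.597 CPM in shCON (SD, n = 3 each; 1.04, adjusted p = 7.29e-18, edgeR). The enterocyte marker sum was higher in shCTSV too, and its part in the MEP1A value was not tested. The endothelin-converting enzyme genes ECE1 (0.20) and ECE2 (-0.55) moved in opposite directions.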

How the data were processed

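RNA-seq read counts per gene of 6 Huh7 libraries, 3 with an shRNA against CTSV and 3 with a control shRNA, were taken from the authors' deposited table. The counts are whole numbers with no normalization recorded. The submitters' processing notes name the build hg38 and the tools HISAT2, StringTie and SAMtools. The sources used here do not give the counting tool, its annotation or its use of strand. Beside the counts stand the authors' log2 fold changes (control over knockdown, from the values) and the authors' p-values, both deposited without the name of the test.

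Of 28915 rows, 1521 repeated a gene name with the same counts and were removed. Genes were tested with edgeR 4.0.16 (R 4.3.3): TMM normalization, filterByExpr by group, quasi-likelihood test without covariates and Benjamini-Hochberg adjustment over 15968 genes, and called at an adjusted p under 0.05. "Rose" and "fell" mean called. CPM is TMM-normalised. Intervals are 95%. Exon length, gene type and overlaps came from GENCODE v29, which covers all 39 members. Every member is described. Outside the members, up to 3 called genes of smallest adjusted p were named per list, and a gene that this rule names is not reported here. The planned division of ADAM genes by an active-site motif was not made, since no protein sequences were used, and activity is given as background. The members and lists were chosen with earlier results of these data known. The fit was tested on simulated data. The main test did not pair libraries by replicate number. Alternatives were RLE factors, other filters, the replicate block, DESeq2 1.42.0, a 1.5-fold limit and leaving out each library, with length and GC offsets added after seeing the data. Promoter letters came from RefSeq.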

Additional observations from a re-analysis of the deposited data

How the results depend on the processing

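Of the 17 called members, 10 (ADAM9, ADAM10, ADAM17, ADAMTS1, ADAMTS3, ADAMTS6, ADAMTS9, ADAMTS12, ADAMTS13 and ADAMTS20) were called in the same direction in all 12 alternatives other than the fold limit, and 7 lost their call in at least 1. No called member changed direction in any alternative that gave a value. With a limit of 1.5-fold, 6 of the 32 tested members rose and 1 fell, against 10 and 7 without it. Under that limit 1383 of all 15968 tested genes rose and 621 fell, against 2982 and 3451 without it. Of the genes in the regulator lists, 9 rose and 10 fell, against 23 and 27 without the limit. The members' median log2 fold change ranged from 0.010 to 0.287 when single libraries were left out. With the replicate block 10 members rose and 7 fell, so the block changed neither count. Deviations of same-numbered libraries from their group means had correlations of -0.0122, -0.00253 and 0.0212, so no shared deviation by number was seen. These correlations cannot show whether such libraries were prepared together. Depth limits the rarer members, with intervals wider than 1 log2 unit for example in TIMP1, ADAMTS13 and MMP24.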

Other observations

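The authors' deposited table gives 7 members higher and 6 lower in knockdown at its adjusted p under 0.05, against 10 and 7 in the test used here. ADAM15 (adjusted p = 0.0828), ADAM22 (0.0538), MMP11 (0.105) and MMP28 (0.0992) are those not called in the authors' deposited table.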
